A study of Mus musculus with 7 samples.

Results

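NF-kB is a family of dimeric transcription factors held inactive in the cytoplasm by inhibitors of the IkB family. Receptors for tumour necrosis factor, interleukin 1 and microbial products activate the IkB kinase, which marks the inhibitors for destruction and lets the dimers enter the nucleus. Many of the genes that NF-kB switches on encode its own inhibitors and subunits, so the pathway limits itself by feedback, and in tumour cells it is known for inflammatory and survival genes. The 10 genes described here were listed by name as rows of the count table, which holds 35727 genes: the subunit genes Nfkb1, Nfkb2, Rela and Relb, the IkB family genes Nfkbia, Nfkbie, Nfkbiz and Bcl3, and the feedback genes Tnfaip3 and Ier3. All 10 were found under 1 Ensembl identifier each, and all 10 passed the filter on low counts. The list was not chosen on a measured value, but it was proposed with earlier results of these data known.

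PolyA RNA was sequenced from the RFP+ tumour cells of a pair of mouse sarcoma models, so called for the red fluorescent protein they were sorted by, and deposited as estimated counts per gene. The p53KO Vgll3 OE model gave 3 libraries and the p53KO Ccne1 OE model gave 4. Both models began as mesenchymal stem cells of female p53KO mice on the C57/Bl6 background, carried a retroviral vector (for Vgll3, a cofactor of TEAD transcription factors, or for Ccne1, cyclin E1), and were passed under the skin of wild-type female mice before a last transplantation. The age of the mice was not given in the sources used here. The labels name 1 tumour cell line per model and no separate animal for each library, so the p-values cover only how much these libraries vary, which may be technical variation. The effect of the overexpressed gene and any other difference of the 2 lines cannot be told apart. Both groups lack p53, so no group here shows the genes in p53-competent cells.

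Library totals ranged from 21725890 to 53610300 counts. Levels are in CPM (counts divided by TMM-adjusted library size), given as mean ± SD over 3 Vgll3-labelled and 4 Ccne1-labelled libraries. Positive log2 fold changes mean a higher level in the Vgll3-labelled libraries, and a gene was called where the edgeR quasi-likelihood adjusted p over all 13740 genes tested was under 0.05. Vgll3 itself had 252 ± 34.6 CPM in the Vgll3-labelled and 50.7 ± 8.57 CPM in the Ccne1-labelled libraries, while Ccne1 had 14.9 ± 2.16 CPM in the Vgll3-labelled and 12.7 ± 5.61 CPM in the Ccne1-labelled libraries (log2 fold change 0.23, edgeR adjusted p = 0.609). The Ccne1 label was thus not matched by a called rise of Ccne1, and groups are named by their labels. The 10 mesenchymal markers of the labelled cell type summed to 34778 to 41729 CPM in the Vgll3-labelled and 22589 to 27965 CPM in the Ccne1-labelled libraries. Of these, 5 were called higher and 3 lower, where 25.1% of all genes tested were called higher and 26.8% lower. Vim, the intermediate filament gene vimentin, had the highest mean over the 7 libraries but averaged 4375 CPM in the Vgll3-labelled and 13973 CPM in the Ccne1-labelled libraries, while the collagen gene Col1a2 averaged 17309 CPM in the Vgll3-labelled and 4197 CPM in the Ccne1-labelled libraries. Among host immune genes, picked out after their values were seen, the leukocyte gene Ptprc, the macrophage gene Adgre1 and the T cell gene Cd3e averaged 1.84, 0.0563 and 0.0509 CPM in the Vgll3-labelled libraries, against 0.892, 0.0878 and 0.0139 CPM in the Ccne1-labelled libraries. Other markers were higher: Cd68 averaged 3.96 CPM in the Vgll3-labelled and 5.03 CPM in the Ccne1-labelled libraries, and Cd14 is given with the host lists.

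DNA at the RefSeq starts of these genes is shown first because NF-kB acts on its own genes through kappaB sites. RefSeq promoter sequences (mouse build GRCm38.p6, the 250 bases before a gene start) were at hand for 7 of the 10 genes, in 10 windows; there was no entry for Nfkb1, Relb and Nfkbiz. The kappaB consensus, a motif of 10 bases, was searched on both strands. It was found for 5 of the 7 genes (Nfkb2, Nfkbia, Nfkbie, Tnfaip3 and Ier3) and not in the windows of Rela and Bcl3. By window, 7 of the 10 held it, against 3.90% of all 32851 promoter windows. Nfkb2 and Tnfaip3 had a window with at least 2 matches, found in 0.493% of all windows. A match is a description of letters and not a measured binding site.

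The upstream stretch of Nfkbia, the gene of the main IkB protein, lies at chr12:55492648-55492897 on the minus strand, directly before the annotated gene, and that of Ier3, the gene with the largest difference below, at chr17:35821463-35821683 on the plus strand. Each is printed 5′ to 3′ on its gene's strand with the kappaB match in capitals; both matches read on the opposite strand, 29 to 20 bases before the RefSeq start of Nfkbia and 92 to 83 bases before that of Ier3.
Nfkbia: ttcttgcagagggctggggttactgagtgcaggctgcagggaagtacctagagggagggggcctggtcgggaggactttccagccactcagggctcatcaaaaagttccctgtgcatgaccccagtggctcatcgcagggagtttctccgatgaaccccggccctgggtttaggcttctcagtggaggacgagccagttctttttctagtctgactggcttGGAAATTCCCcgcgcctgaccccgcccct
Ier3: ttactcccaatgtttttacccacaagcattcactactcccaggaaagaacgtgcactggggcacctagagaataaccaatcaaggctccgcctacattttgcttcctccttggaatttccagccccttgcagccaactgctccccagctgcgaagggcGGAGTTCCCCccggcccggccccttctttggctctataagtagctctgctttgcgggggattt

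The other matches are shown with 10 bases on each side, to compare the sites of the inhibitor, deubiquitinase and subunit genes. They lie at chr17:45555584-45555613 for Nfkbie (plus strand), at chr10:19015403-19015432 and chr10:19015516-19015545 for Tnfaip3 (minus strand), and at chr19:46304688-46304717 and chr19:46305695-46305724 for Nfkb2 (plus strand), in that order. The first Nfkb2 match reads as the consensus on both strands and overlaps another match by all but 1 base. The matches of Nfkb2 and Tnfaip3 precede RefSeq starts, but the printed stretches lie within the GENCODE bounds of these genes, which begin farther out. The stretch of Tnfaip3 near the start runs past that start, as its match ends 3 bases before it. The stretch of Nfkbie lies before its gene. Further matches of Nfkb2 are not printed.
Nfkbie: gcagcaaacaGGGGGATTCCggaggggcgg
Tnfaip3, near the start: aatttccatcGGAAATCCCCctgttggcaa
Tnfaip3, farther from the start: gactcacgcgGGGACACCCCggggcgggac
Nfkb2, window of the first start: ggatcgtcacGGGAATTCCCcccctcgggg
Nfkb2, window of a later start: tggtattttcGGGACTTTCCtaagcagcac

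Of the 10 genes, Nfkb1 and Nfkb2 were higher and Relb and Ier3 lower in the Vgll3-labelled libraries, and 6 were not called. These are 2 of 10 called higher, where 25.1% of all genes tested were, and 2 of 10 called lower, where 26.8% were. Over both directions, 4 of 10 were called against 51.9% of all genes. The median log2 fold change was -0.18 over the 10 genes and 0.01 over all genes tested. In bulk RNA, fewer cells of a type and less RNA per cell cannot be told apart, and this holds for every difference below.

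**Figure D1:**
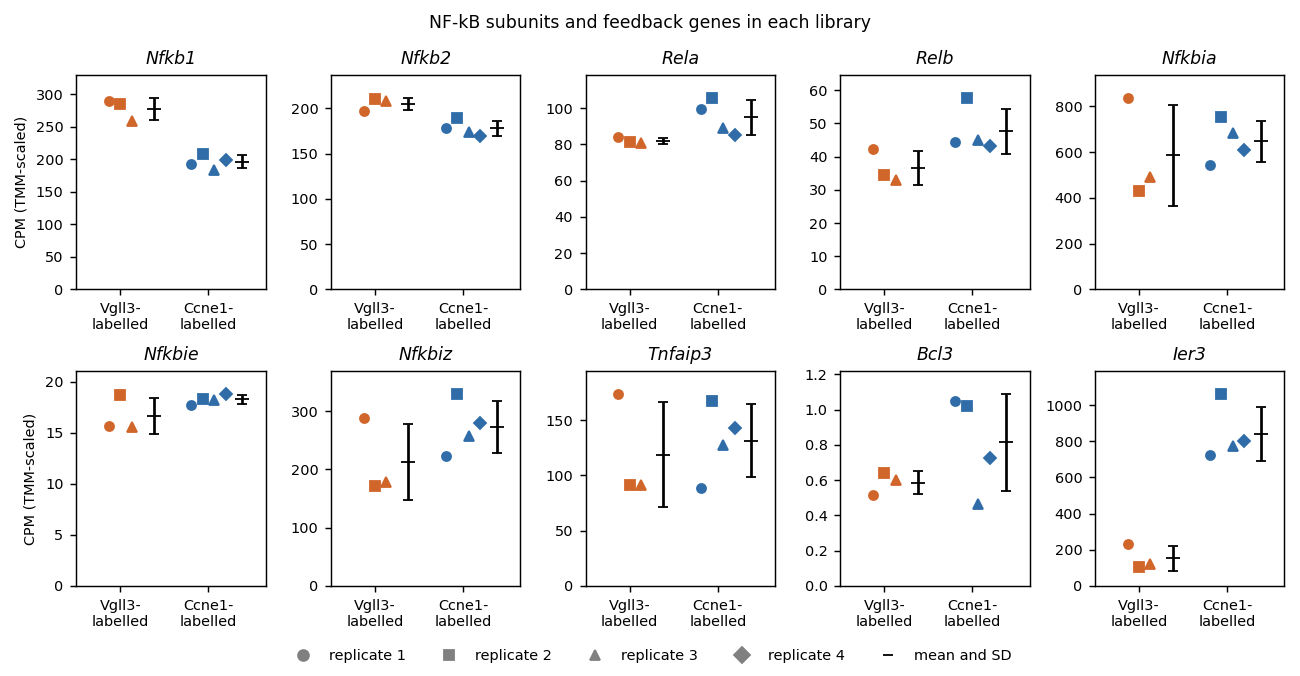
CPM (TMM-scaled, axis from 0) of each of the 10 genes in every library, Vgll3-labelled (orange, 3 libraries) left of Ccne1-labelled (blue, 4 libraries), with the marker shape giving the replicate and the black bar the mean and SD. Ier3 lies at 107 to 230.1 CPM in the Vgll3-labelled and 724 to 1061 CPM in the Ccne1-labelled libraries, while Nfkbia, Nfkbiz and Tnfaip3 overlap between the groups with Vgll3 replicate 1 highest of its group.

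Among the subunits, Nfkb1 encodes the precursor p105, which is processed to the DNA-binding subunit p50. It had 289.9, 286 and 259 CPM in Vgll3 replicates 1 to 3, against 193, 209, 184 and 199 CPM in Ccne1 replicates 1 to 4. Every Vgll3-labelled library was above every Ccne1-labelled library, a separation found for 55.7% of all genes tested. The level was 1.42-fold higher (log2 fold change 0.50, SE 0.07, 95% interval 0.33 to 0.67, edgeR adjusted p = 0.000561; two-sided exact permutation p = 0.0286, the smallest that 3 against 4 libraries allow). It kept its call in all 14 alternative fits, with log2 fold changes of 0.47 to 0.59. On its chromosome 3, the median log2 fold change of 681 tested genes was -0.09.

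Nfkb2 encodes p100, the precursor of p52 in the non-canonical pathway, and is a target of NF-kB itself. It had 197, 209.9 and 208 CPM in Vgll3 replicates 1 to 3, against 178, 189.6, 174 and 169 CPM in Ccne1 replicates 1 to 4. The groups did not overlap, but the difference was small: 205 ± 7.07 CPM in the Vgll3-labelled and 178 ± 8.69 CPM in the Ccne1-labelled libraries, 1.15-fold (log2 fold change 0.20 with an SE of 0.07, edgeR adjusted p = 0.0320; exact permutation p = 0.0571). Of all genes tested, 73.8% had a larger log2 fold change in size, and the 464 tested genes of its chromosome 19 had a median of 0.13. Among the fits that left out a library or the filter, the call ended without Vgll3 replicate 2 (edgeR adjusted p = 0.115), without Ccne1 replicate 1 (0.0599), 3 (0.0881) or 4 (0.0913), and without a low-count filter (0.122). Nfkb2 shares 299 exon bases with Psd on the opposite strand, and reads of overlapping genes on opposite strands cannot be told apart if counting ignored strand.

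Rela encodes p65, the main transactivating subunit of the canonical pathway. It had 83.9, 81.3 and 80.9 CPM in Vgll3 replicates 1 to 3, against 99.6, 106, 88.8 and 85.3 CPM in Ccne1 replicates 1 to 4. The groups did not overlap, yet the gap between the nearest libraries was small next to the spread of the Ccne1-labelled libraries, and Rela was not called (log2 fold change -0.21, SE 0.09, edgeR adjusted p = 0.0671; exact permutation p = 0.0857). Without Ccne1 replicate 4, the library nearest to the other group, it was (log2 fold change -0.26, edgeR adjusted p = 0.0389).

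Relb encodes the partner of p52 in the non-canonical pathway. It had 42.4, 34.3 and 33.1 CPM in Vgll3 replicates 1 to 3, against 44.5, 57.8, 45.0 and 43.1 CPM in Ccne1 replicates 1 to 4. Vgll3 replicate 1 lay just below the lowest Ccne1-labelled library, and Ccne1 replicate 2 stood above the other libraries. Relb was 1.30-fold lower with the Vgll3 label (log2 fold change -0.38 with an SE of 0.13, edgeR adjusted p = 0.0355; exact permutation p = 0.0286). Among the fits that left out a library or changed the scaling, the call ended without Vgll3 replicate 2 (edgeR adjusted p = 0.108) or 3 (0.109), without Ccne1 replicate 2 (0.0707) or 3 (0.0550), and with upper quartile scaling (0.0734).

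Ratios of subunit counts within a library do not depend on the scaling between libraries. The log2 ratio of Nfkb2 to Nfkb1 was -0.56, -0.44 and -0.32 in Vgll3 replicates 1 to 3, against -0.12, -0.14, -0.09 and -0.23 in Ccne1 replicates 1 to 4. It was lower in every Vgll3-labelled library, where Nfkb1 was higher by more than Nfkb2. The log2 ratio of Relb to Rela was -0.98 to -1.29 in Vgll3-labelled and -0.87 to -1.16 in Ccne1-labelled libraries, and these ranges overlapped.

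Ier3, an early response gene that NF-kB, growth factors and stress induce and that affects cell survival, had the largest difference of the 10 genes. It had 230.1, 107 and 120.5 CPM in Vgll3 replicates 1 to 3, against 724, 1061, 776 and 804 CPM in Ccne1 replicates 1 to 4. The lowest Ccne1-labelled library lay far above the highest Vgll3-labelled one. Ier3 was 5.52-fold lower with the Vgll3 label (log2 fold change -2.46, SE 0.31, 95% interval -3.18 to -1.74, edgeR adjusted p = 0.000526; exact permutation p = 0.0286). It was called in all 14 alternative fits, with log2 fold changes of -2.90 to -2.27. Only 4.80% of genes tested had a larger log2 fold change in size, and Ier3 was the 1 gene of the 10 called with at least 2-fold, where 7.49% of all genes were called at least 2-fold lower and 9.2% at least 2-fold higher. The 680 tested genes of its chromosome 17 had a median log2 fold change of -0.33.

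**Figure D2:**
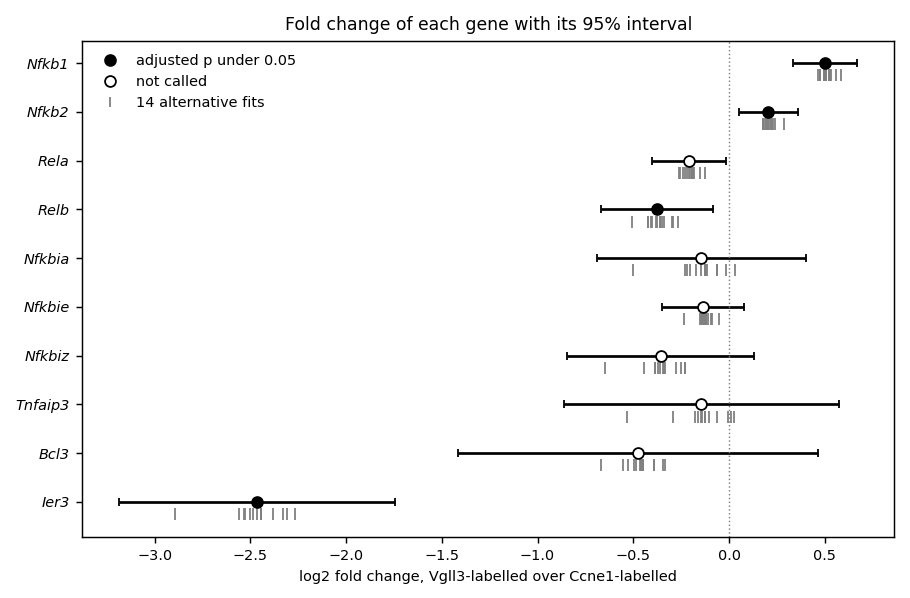
Log2 fold change (Vgll3-labelled over Ccne1-labelled) of each gene with its 95% interval, filled where the edgeR adjusted p was under 0.05, and grey ticks for 14 alternative fits. Ier3 stands at -2.46, apart from the other 9 genes, which lie between -0.48 and 0.50; the ticks of Nfkbia and Tnfaip3 cross 0.

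The remaining feedback gene, Tnfaip3, encodes A20, an enzyme that edits ubiquitin chains and shuts off signalling to the IkB kinase. It had 174, 91.0 and 91.8 CPM in Vgll3 replicates 1 to 3, against 88.8, 167, 127 and 143 CPM in Ccne1 replicates 1 to 4. The groups overlapped, with the highest of the 7 libraries in the Vgll3-labelled group and the lowest in the Ccne1-labelled group. The log2 fold change was -0.14 with a 95% interval from -0.86 to 0.57 (edgeR adjusted p = 0.714). Its sign turned without Vgll3 replicate 2 (0.0085) or 3 (0.025).

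Nfkbia encodes IkBα, the inhibitor that NF-kB quickly restores. It had 838, 429 and 489.8 CPM in Vgll3 replicates 1 to 3, against 545, 752, 682 and 611 CPM in Ccne1 replicates 1 to 4. Vgll3 replicate 1 was above every Ccne1-labelled library and the other Vgll3-labelled libraries were below all of them. Over all libraries the log2 fold change was -0.14 (SE 0.23, edgeR adjusted p = 0.634). Without Vgll3 replicate 1 it was -0.50 and called (edgeR adjusted p = 0.0163), and without Vgll3 replicate 2 it was 0.031. The log2 ratio of Nfkbia to Rela within a library was 3.32, 2.40 and 2.60 in Vgll3 replicates 1 to 3, against 2.45, 2.83, 2.94 and 2.84 in Ccne1 replicates 1 to 4.

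Nfkbiz encodes IkBζ, a nuclear member of the IkB family that acts as a coactivator for a subset of NF-kB targets. It had 289, 172 and 178 CPM in Vgll3 replicates 1 to 3, against 224, 329, 257 and 280.5 CPM in Ccne1 replicates 1 to 4. Again Vgll3 replicate 1 was high in its group and the groups overlapped (log2 fold change -0.36, SE 0.21, edgeR adjusted p = 0.189). Without Vgll3 replicate 1, Nfkbiz was called lower (log2 fold change -0.65, edgeR adjusted p = 0.00711). In that fit 4 of the 10 genes were called lower (Relb, Nfkbia, Nfkbiz and Ier3), where 24.8% of all genes were.

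Nfkbie encodes IkBε, a slower feedback inhibitor. It had 15.6, 18.7 and 15.6 CPM in Vgll3 replicates 1 to 3, against 17.7 to 18.8 CPM in the Ccne1-labelled libraries. The groups overlapped and Nfkbie was not called (log2 fold change -0.14, 95% interval -0.35 to 0.08, edgeR adjusted p = 0.253). Bcl3 encodes a nuclear IkB protein that binds p50 and p52 dimers. It was the least abundant of the 10 genes, with 15 to 53 counts per library, 0.586 ± 0.0654 CPM in the Vgll3-labelled and 0.814 ± 0.275 CPM in the Ccne1-labelled libraries. The groups overlapped and Bcl3 was not called (log2 fold change -0.48, SE 0.41, edgeR adjusted p = 0.362). Bcl3 shares 161 exon bases with an antisense transcript, Gm16175.

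Within the groups, 7 of the 10 genes were highest in both Vgll3 replicate 1 and Ccne1 replicate 2: Nfkb1, Rela, Relb, Nfkbia, Nfkbiz, Tnfaip3 and Ier3. Of these, Nfkbia, Nfkbiz, Tnfaip3 and Ier3, picked out after their values were seen, were also lowest of the Ccne1-labelled group in Ccne1 replicate 1. In Vgll3 replicate 1 these 4 genes stood 0.48 to 0.68 above the mean log2 CPM of their group, while Nfkb1, Nfkb2, Rela and Nfkbie stood between -0.09 and 0.06 from it. Relb lay between, at 0.22, and Bcl3 stood at -0.18. In Ccne1 replicate 2, Relb (0.29) lay within the range of these 4 genes (0.23 to 0.38), and Bcl3 (0.40) lay above it. In all, 7 of the 10 genes were highest of their group in Vgll3 replicate 1 and 8 in Ccne1 replicate 2, where 32.4% and 29.9% of all genes tested were. The within-group coefficient of variation was 31.0% to 44.4% for these 4 genes in the Vgll3-labelled libraries and 13.8% to 25.0% in the Ccne1-labelled libraries. For the subunit genes Nfkb1, Nfkb2 and Rela it was 2.00% to 6.10% in the Vgll3-labelled and 4.89% to 10.01% in the Ccne1-labelled libraries. For the subunit gene Relb it was 13.8% with the Vgll3 label and 14.4% with the Ccne1 label, which lies within the Ccne1 range of the 4 genes above. For Bcl3 it was 11.2% with the Vgll3 label and 33.7% with the Ccne1 label, and for Nfkbie 10.8% and 2.33%.

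**Figure D3:**
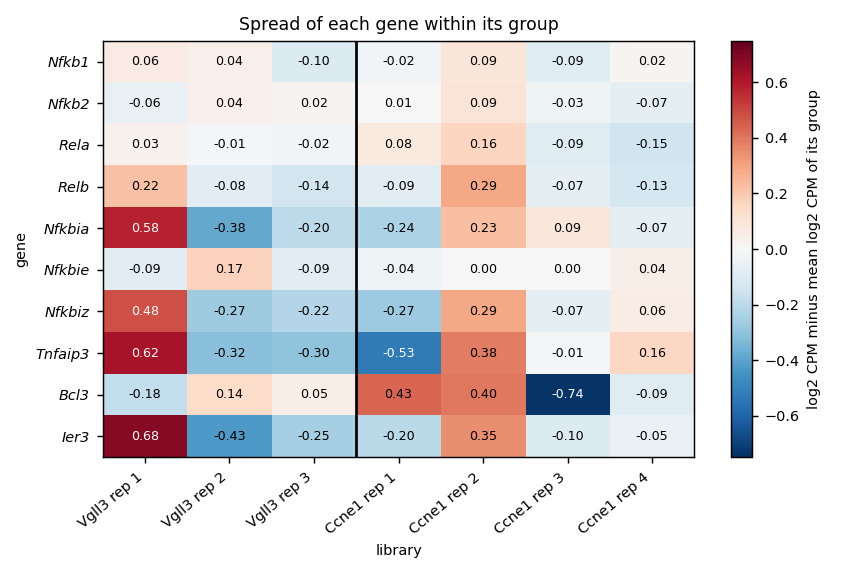
Log2 CPM of each gene in each library minus the mean log2 CPM of its group, with the 3 Vgll3-labelled libraries left of the line and the 4 Ccne1-labelled libraries right of it. Nfkbia, Nfkbiz, Tnfaip3 and Ier3 share raised values in Vgll3 replicate 1 (0.48 to 0.68) and Ccne1 replicate 2 (0.23 to 0.38). Relb is raised in both as well (0.22 and 0.29), while Bcl3 is at -0.18 in the first and 0.40 in the second.

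The libraries where these genes were high also had the most counts of their groups, 47504434 in Vgll3 replicate 1 and 53610300 in Ccne1 replicate 2, and the highest summed level of 16 dissociation stress genes, 21695 CPM and 18900 CPM. The other libraries had 16224 and 19353 CPM of these stress genes in the Vgll3-labelled group and 15099 to 16888 CPM in the Ccne1-labelled group. Jun, a subunit of the AP-1 factor, had the highest mean of that list. Of the 16 stress genes, 3 were called higher, 2 lower and 11 not called, where 25.1% of all genes tested were called higher and 26.8% lower. The part of depth and of stress genes in the NF-kB values was not tested.

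Levels between the genes were compared as CPM per kilobase of the longest principal transcript. In the Vgll3-labelled libraries the order was Nfkbia (371 ± 139.8 CPM per kilobase), Ier3 (135 ± 59.8), Nfkb1 (67.5 ± 4.12), Nfkb2 (65.2 ± 2.25), Nfkbiz (51.7 ± 16.0), Rela (30.2 ± 0.604), Tnfaip3 (26.9 ± 10.8), Relb (16.6 ± 2.30), Nfkbie (6.83 ± 0.736) and Bcl3 (0.317 ± 0.0354). The libraries overlapped between the neighbours Nfkb1 and Nfkb2, Nfkb2 and Nfkbiz, and Rela and Tnfaip3. In the Ccne1-labelled libraries Ier3 came first with 744 ± 133 CPM per kilobase, above Nfkbia with 410.1 ± 56.7, and every Ier3 value there was above every Nfkbia value. Nfkbiz (66.2 ± 10.8), Nfkb2 (56.6 ± 2.77) and Nfkb1 (47.7 ± 2.49) followed, with Nfkbiz and Nfkb2 overlapping. With the exon union of all transcripts as length, Nfkb1 fell below Nfkb2, Nfkbiz and Rela in both groups, at 23.1 and 16.3 CPM per kilobase in the Vgll3-labelled and Ccne1-labelled libraries.

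The genes most like 3 of the members over the 7 libraries were looked up among 8831 genes with a mean of at least 10 CPM. For Nfkb2 these were Mepce (Pearson r 0.979 of log2 CPM), Plod1 (0.972) and Rab11fip2 (0.964). For Nfkbia they were 8030462N17Rik (0.979), Gtf2e2 (0.973) and Jund (0.962), and for Tnfaip3 Map3k8 (0.981), 8030462N17Rik (0.975) and Kdm5b (0.975). Map3k8, a kinase of the NF-kB pathway, had 15.6, 7.25 and 7.73 CPM in Vgll3 replicates 1 to 3, against 7.33, 15.1, 9.72 and 10.90 CPM in Ccne1 replicates 1 to 4. Like Tnfaip3, it was high in Vgll3 replicate 1 and Ccne1 replicate 2. These are descriptions over 7 libraries that share the groups and the depths given above.

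The wider pathway was read from 7 lists with 106 genes, of which 92 were tested. Of these, 26 were called higher and 24 lower, which is 28.3% and 26.1%, against 25.1% and 26.8% of all genes, and the median log2 fold change was -0.01. These shares lay near those of all genes.

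**Figure D4:**
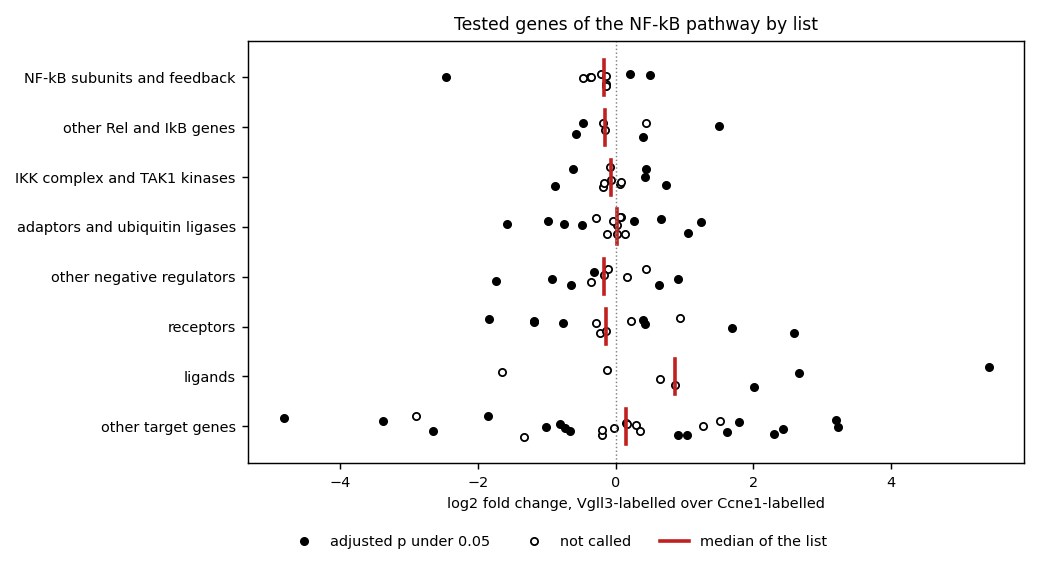
Log2 fold change (Vgll3-labelled over Ccne1-labelled) of every tested gene of the 10 members and of 7 pathway lists, filled where the edgeR adjusted p was under 0.05, with a red bar at the median of each list. Medians lie between -0.18 and 0.86, and called genes stand on both sides of 0 in every list but the ligands.

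The list of ligands was sparse, and besides activating ligands it holds Il1rn, the gene of the interleukin 1 receptor antagonist. Only 7 of 13 passed the filter, and Tnf averaged 0.405 ± 0.0643 CPM in the Vgll3-labelled and 0.185 ± 0.105 CPM in the Ccne1-labelled libraries, too low to test. Of the 7, 3 were called, each of them higher, where 25.1% of all genes tested were called higher. The median log2 fold change of the 7 was 0.86, which is the value of Il1rn. Il1rn was not called, with 0.341 ± 0.141 CPM in the Vgll3-labelled and 0.196 ± 0.146 CPM in the Ccne1-labelled libraries. Without Vgll3 replicate 1, 1 of the 7 was called lower. Il33, a cytokine of the interleukin 1 family that is released from damaged cells, had 42.6 ± 31.7 CPM in the Vgll3-labelled and 6.69 ± 2.41 CPM in the Ccne1-labelled libraries (log2 fold change 2.66, edgeR adjusted p = 0.00830), and 1.87 without Vgll3 replicate 1. Il18, another cytokine of that family, had 3.22 ± 0.907 CPM in the Vgll3-labelled libraries, against 0.0662 ± 0.0372 CPM in the Ccne1-labelled libraries, where it had 1, 6, 1 and 2 counts in replicates 1 to 4 (edgeR adjusted p = 3.18e-05).

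Of 13 receptors tested, 4 were called higher and 4 lower, against 25.1% and 26.8% of all genes (median log2 fold change -0.14). Tnfrsf11a, the receptor RANK, had 9.78 ± 2.29 CPM in the Vgll3-labelled and 1.62 ± 0.420 CPM in the Ccne1-labelled libraries, on the log2 scale 2.59 higher (edgeR adjusted p = 6.28e-05). Tlr3, a sensor of double-stranded RNA, was also higher (log2 fold change 1.69, edgeR adjusted p = 4.74e-05). Tlr4, the receptor for bacterial lipopolysaccharide, was lower, with 20.5 ± 3.06 CPM in the Vgll3-labelled and 46.5 ± 3.79 CPM in the Ccne1-labelled libraries (edgeR adjusted p = 5.67e-05). Tnfrsf9, the costimulatory receptor 4-1BB, was lower, by -1.84 on the log2 scale (edgeR adjusted p = 0.0235). That call ended without Vgll3 replicate 2 (0.0741) or 3 (0.0687), without Ccne1 replicate 2 (0.0545) and without a low-count filter (0.0712), and the log2 fold change was -2.59 without Vgll3 replicate 1.

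Of 16 adaptors and ubiquitin ligases, 4 were called higher and 4 lower, against 25.1% and 26.8% of all genes (median 0.02). Traf5, an adaptor of tumour necrosis factor receptors, had 15.3 ± 3.56 CPM in the Vgll3-labelled and 6.49 ± 0.651 CPM in the Ccne1-labelled libraries, and Birc2, the ubiquitin ligase cIAP1, had 32.1 ± 3.52 CPM in the Vgll3-labelled and 15.6 ± 0.764 CPM in the Ccne1-labelled libraries. Their log2 fold changes were 1.24 and 1.04 (edgeR adjusted p = 0.000281 and 4.14e-05). Irak2 and Traf6, which carry signals of interleukin 1 and Toll-like receptors, were both lower. Irak2 had 13.1 ± 1.68 CPM in the Vgll3-labelled and 39.1 ± 5.78 CPM in the Ccne1-labelled libraries (log2 fold change -1.59, edgeR adjusted p = 3.37e-05), and Traf6 a value of -0.99 (edgeR adjusted p = 0.000682).

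Of 11 genes of the IkB kinase complex and the TAK1 kinase module, 3 were called higher and 2 lower (median -0.08). The shares over all genes were 25.1% higher and 26.8% lower. Map3k7, the kinase TAK1, had 128 ± 6.55 CPM in the Vgll3-labelled and 77.1 ± 1.14 CPM in the Ccne1-labelled libraries (log2 fold change 0.73, edgeR adjusted p = 3.23e-05). Ikbkg, the regulatory subunit NEMO of the IkB kinase, had 20.1 ± 2.35 CPM in the Vgll3-labelled and 36.9 ± 2.20 CPM in the Ccne1-labelled libraries (log2 fold change -0.88, edgeR adjusted p = 0.000117), and Tab3, an adaptor of TAK1, changed by -0.62 on the log2 scale (edgeR adjusted p = 0.00255). The catalytic subunit genes Chuk and Ikbkb, named after their values were seen, were not called (log2 fold changes -0.18 and -0.08). Map3k14, the kinase NIK of the non-canonical pathway, was called higher (log2 fold change 0.43, edgeR adjusted p = 0.0223) with groups that overlapped. That call ended without Vgll3 replicate 2 (0.0836) or 3 (0.0577) and without Ccne1 replicate 1 (0.0518) or 2 (0.0541).

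Of 7 other Rel and IkB genes, 2 were called higher and 2 lower, against 25.1% and 26.8% of all genes (median -0.15). Nfkbib, the gene of IkBβ, had 27.2 ± 3.24 CPM in the Vgll3-labelled and 40.6 ± 3.09 CPM in the Ccne1-labelled libraries (log2 fold change -0.58, edgeR adjusted p = 0.00153), and Nfkbil1, named for its likeness to IkB proteins, changed by -0.47 on the log2 scale (edgeR adjusted p = 0.00270). Nfkbid, a nuclear IkB gene, was called higher with 0.854 ± 0.342 CPM in the Vgll3-labelled and 0.295 ± 0.0885 CPM in the Ccne1-labelled libraries (edgeR adjusted p = 0.0235), a call that ended without Vgll3 replicate 1 (0.0634) or 3 (0.0580) or Ccne1 replicate 4 (0.0565). Nkrf, a repressor of NF-kB target genes, was called higher (log2 fold change 0.39, edgeR adjusted p = 0.0314), a call that ended without Vgll3 replicate 2 (0.105), without any of Ccne1 replicates 1 to 4 (0.0515 to 0.0773) and without a low-count filter (0.107).

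Of 11 other negative regulators tested, 2 were called higher and 4 lower, against 25.1% and 26.8% of all genes (median -0.16). Rnf11, a ubiquitin ligase that acts in the A20 complex, had 187 ± 79.9 CPM in the Vgll3-labelled and 624 ± 92.5 CPM in the Ccne1-labelled libraries (log2 fold change -1.74, edgeR adjusted p = 0.00162). Tnip1, which binds A20, had 57.3 ± 4.88 CPM in the Vgll3-labelled and 109 ± 34.5 CPM in the Ccne1-labelled libraries (log2 fold change -0.93, edgeR adjusted p = 0.0106). Tax1bp1, another adaptor of A20, was higher (log2 fold change 0.63, edgeR adjusted p = 0.000481). Nlrc5, a regulator of MHC class I genes that also restrains NF-kB signalling, was called higher (log2 fold change 0.91, edgeR adjusted p = 0.0333); the call ended without any of Ccne1 replicates 1 to 4 (0.0568 to 0.0779) or with every gene kept, however low (0.0847). Its log2 fold change was 0.47 without Vgll3 replicate 3.

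Of 27 other NF-kB target genes tested, 8 were called higher and 8 lower, against 25.1% and 26.8% of all genes (median 0.15). Ccl2, a monocyte chemokine, changed by 3.20 on the log2 scale (edgeR adjusted p = 3.05e-06), and Cxcl5, a neutrophil chemokine, by 3.23 (edgeR adjusted p = 0.0165). Cxcl5 had only 2.26 ± 1.61 CPM in the Vgll3-labelled and 0.241 ± 0.269 CPM in the Ccne1-labelled libraries, with 0 CPM in Ccne1 replicate 4. Ccl2 had 90.9 ± 19.6 CPM in the Vgll3-labelled and 9.89 ± 1.06 CPM in the Ccne1-labelled libraries. The Cxcl5 value was 4.33 without Ccne1 replicate 3, 4.00 with limma-voom and 2.45, not called, without Vgll3 replicate 1 (edgeR adjusted p = 0.0612). Pdgfb, the gene of the growth factor chain PDGF-B, averaged 1.91 ± 1.22 CPM in the Vgll3-labelled libraries, against 48.3 to 61 CPM in the Ccne1-labelled libraries. Its log2 fold change was -4.82 (edgeR adjusted p = 6.04e-05), and -5.46 without Vgll3 replicate 3. Nos2, the inducible nitric oxide synthase, was lower too (log2 fold change -3.39, edgeR adjusted p = 0.00408). No list was tested as a set.

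Summed levels of host cell markers were taken from 9 lists. Macrophage and monocyte markers summed to 13.6 to 25.7 CPM in the Vgll3-labelled and 60.0 to 81.0 CPM in the Ccne1-labelled libraries. Cd14, the most abundant of them, had 7.84, 4.31 and 7.03 CPM in Vgll3 replicates 1 to 3 and 51.9 to 69.3 CPM in the Ccne1-labelled libraries, and was the 1 gene called of 8 tested. Endothelial markers, led by Pecam1, summed to 34.4, 65.8 and 232 CPM in Vgll3 replicates 1 to 3 and 51.2 to 137 CPM in the Ccne1-labelled libraries. Pericyte markers summed to 145 to 172 CPM in the Vgll3-labelled and 459 to 551 CPM in the Ccne1-labelled libraries. Most of this was Cspg4, with means of 140 CPM in the Vgll3-labelled and 514 CPM in the Ccne1-labelled libraries. Of 5 tested, 2 were called higher and 1, Cspg4, lower. Rgs5 and Notch3, called higher, averaged 5.95 and 11.7 CPM in the Vgll3-labelled and 0.543 and 4.00 CPM in the Ccne1-labelled libraries. Kcnj8 and Abcc9 had lower means in the Vgll3-labelled libraries and were not called. Granulocyte (led by Mpo), lymphoid (Cd79a), dendritic (Cd74), adipocyte (Fabp4), keratinocyte (Krt10) and red blood cell (Hba-a1) lists summed to between 0.0727 and 11.8 CPM in every library, with Fabp4, Hba-a1 and its near copy Hba-a2 called lower, and Clec9a, Lep, Cidec and Krt5 were at 0 in all. Vgll3 replicate 3 had the highest endothelial sum, of which Pecam1 made up 184 CPM. Cdh5, Tek, Tie1, Emcn, Vwf and Cldn5 were higher in Ccne1 replicate 1 than in Vgll3 replicate 3, and Kdr was lower. The part of host cells in the NF-kB values was not tested.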

How the data were processed

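PolyA RNA of sorted sarcoma cells was sequenced in 3 Vgll3-labelled and 4 Ccne1-labelled libraries, grouped and numbered by their titles. The authors deposited estimated counts, 1 row per Ensembl gene, made with Salmon on genome build mm10, per the submitters' processing notes. Its version, the annotation and the use of strand were not given in the sources used here. All values were whole, so 0 needed rounding. Symbols were matched for 35422 of 35727 genes from GENCODE M21 (GRCm38, equal to mm10).

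Genes were tested with edgeR 4.0.16 in R 4.3.3: filterByExpr, TMM factors and the quasi-likelihood test (robust) on the group alone, adjusted with Benjamini-Hochberg over 13740 genes at 0.05. The SE is the log2 fold change over the square root of F. Exact permutation tests of single genes were two-sided over 35 splits. The fit was run on simulated counts in which far fewer genes were changed than were called here. It was therefore not checked at the share of changed genes seen in these data. Alternatives were RLE, upper quartile and no scaling, no low-count filter, DESeq2 1.42.0, limma-voom (limma 3.58.1), a replicate block and leaving out each library. The limit set by a count of 0 (3 counts) was 0.0560 to 0.138 CPM, for counting error only.

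Members and lists were chosen with earlier results of these data known. Named were the 10 members, the labelled genes, up to 2 called genes per direction with the largest change in each pathway list, the most abundant gene of each marker or stress list, and the 3 genes most like Nfkb2, Nfkbia and Tnfaip3. Ptprc, Adgre1, Cd3e, Cd68, Col1a2, Hba-a2, Chuk, Ikbkb, Tnf, Il1rn and markers at 0 were added after their values were seen. So were the named endothelial and pericyte markers other than Pecam1 and Cspg4.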

Additional observations from a re-analysis of the deposited data

Results flagged for a closer look

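Relb had 57.8 CPM in Ccne1 replicate 2, against 43.1 to 45.0 CPM in the other Ccne1-labelled libraries. This library stood far from the other 3: its gap to the nearest was 0.875 of the range of the group. Chance marks about 1 in 20 groups in this way, and 31 groups of 4 values were looked at. Without this library the log2 fold change of Relb was -0.27 (edgeR adjusted p = 0.0707).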

How the results depend on the processing

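Nfkb1 and Ier3 kept their direction and call in all 14 alternative fits, and Nfkbie, Tnfaip3 and Bcl3 were called in none. Nfkb2 was not called without a low-count filter (log2 fold change 0.19), and Relb not with upper quartile scaling (-0.29). Leaving out 1 library moved log2 fold changes to 0.18 to 0.24 for Nfkb2, -0.50 to -0.27 for Relb, -0.26 to -0.15 for Rela, -0.50 to 0.031 for Nfkbia, -0.65 to -0.23 for Nfkbiz and -0.53 to 0.025 for Tnfaip3, with the sign turned for Nfkbia without Vgll3 replicate 2 and for Tnfaip3 without Vgll3 replicate 2 (0.0085) or 3 (0.025). The count of members called was 2 to 6 over these fits, with 1 to 2 higher and 1 to 4 lower; it was 1 higher without a low-count filter and 1 lower with upper quartile scaling. Over the fits that left out 1 library, pathway genes called higher were 17 to 25 and lower 22 to 31. With all libraries they were 26 and 24. More were called lower than higher in each of these fits except without Vgll3 replicate 3 (25 higher and 22 lower). Without Vgll3 replicate 1 they were 20 higher and 31 lower. Of all genes, 2894 to 3577 were called higher and 3129 to 3757 lower. Both directions gave 6023 to 7334, of 13568 to 14148 genes tested. The cause of these changes was not tested.

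The replicate numbers did not pair the libraries: deviations of same-numbered libraries from their group means correlated at -0.14, -0.16 and -0.10. With the replicate block, over replicates 1 to 3, 2 members were called, 1 higher and 1 lower, the calls of Nfkb2 (log2 fold change 0.18, edgeR adjusted p = 0.212) and Relb (-0.42, 0.0738) were lost, 16 pathway genes were called higher, and 2293 of all genes higher, against 3454 without the block. Of the pathway genes named in the text, Il33 (edgeR adjusted p = 0.104), Nos2 (0.0550), Map3k14 (0.0575), Nfkbid (0.154), Nkrf (0.171) and Tnfrsf9 (0.101) also lost their calls with the block. Few counts limit the precision for Bcl3, at 15 to 53 counts per library, and for the 6 ligands too low to test. They also limit it for Cxcl5 and Nfkbid, with means of 0.241 and 0.295 CPM in the Ccne1-labelled libraries. The same holds for Il18, with 1 to 6 counts in each of those libraries.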
